A study of Mus musculus with 20 samples.

Results

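The Hox genes are the members of the 4 clusters Hoxa, Hoxb, Hoxc and Hoxd, which encode homeodomain transcription factors. They were chosen here by symbol, as every row of the deposited gene table named Hoxa, Hoxb, Hoxc or Hoxd followed by a number. This gave 39 genes of the 23845 in the table: 11 of Hoxa, 10 of Hoxb, 9 of Hoxc and 9 of Hoxd.

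The study sequenced poly(A) RNA from the brains of C57/Bl6J mice on a normal diet, to look at exon usage in lines made to lack single isoforms; the series' title names the isoform JNK7b. The 20 libraries fell into 7 groups by their labels. They are Wild type (3 libraries), J17a (3), J17b (2), J27a (3), J27b (3), J2 lf/lf (3) and J1 lf/lf (3). The labels give 1 strain for every group, and do not spell out the line codes, the sex, the age or the part of the brain. They do not say that libraries of a group are separate animals, so p-values measure the spread between these samples, which may be technical. Library totals ran from 21395041 to 33828755 estimated counts. The genes of the kinases JNK1 and JNK2 had gene-level ranges of 30.8 to 62.68 TPM (Mapk8) and 29.51 to 200.41 TPM (Mapk9), which sum all isoforms of each gene. The lowest Mapk9 range, 29.51 to 91.6 TPM, was in J2 lf/lf, against 140.5 TPM or more in the other 6 groups. The lowest Mapk8 range, 30.8 to 34.46 TPM, was in J17b, against 41.43 TPM or more in the others. Forebrain markers were present in every library, with 8 of 8 genes tested and a summed level of 319.6 to 471.9 TPM.

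Within a cluster, Hox genes lie in the order of their paralogue numbers, and genes of the same number in different clusters are paralogues. In the embryo, low numbers are expressed up to the hindbrain and higher numbers end progressively further back along the spinal cord, while forebrain and midbrain express no Hox genes. Neurons of the adult medulla and spinal cord retain part of this code, and Hox proteins bind DNA together with the TALE homeodomain cofactors of the Pbx, Meis and Pknox families.

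On build mm10, in the GENCODE M21 annotation, the Hoxa cluster from Hoxa2 to Hoxa13 spans chr6:52162417-52260880 on the minus strand. The other 3 clusters are read from the plus strand, with Hoxb at chr11:96194316-96368256, Hoxc at chr15:102921103-103036852 and Hoxd at chr2:74668310-74765142. The 250 bases upstream of the start are shown for 1 gene of each of 3 clusters, since members of these clusters were high in the same libraries. Each is the member of its cluster with the highest mean level among those with a window available that overlaps no annotated exon. No window was available for Hoxb5 or Hoxb6, whose mean levels were above that of Hoxb8. Hoxc had no such window in the table used. The sequences are RefSeq's for GRCm38.p6, from chr6:52204588-52204837 (minus strand), chr11:96281655-96281904 (plus strand) and chr2:74721728-74721977 (plus strand). Capitals mark a match, on either strand, to TGATNNAT (a Pbx-Hox composite site), AGGTCA (a nuclear receptor core site) or TGACAG (a Meis site).
Hoxa5: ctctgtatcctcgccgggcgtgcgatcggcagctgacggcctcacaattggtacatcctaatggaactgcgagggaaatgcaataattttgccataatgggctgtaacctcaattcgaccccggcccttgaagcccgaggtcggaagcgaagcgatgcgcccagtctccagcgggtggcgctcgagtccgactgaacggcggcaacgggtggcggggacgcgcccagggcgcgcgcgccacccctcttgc
Hoxb8: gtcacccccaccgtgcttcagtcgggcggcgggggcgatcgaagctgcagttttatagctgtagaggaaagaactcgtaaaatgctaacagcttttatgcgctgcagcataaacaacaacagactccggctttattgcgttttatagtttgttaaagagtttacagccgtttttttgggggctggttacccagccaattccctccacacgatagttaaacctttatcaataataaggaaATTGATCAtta
Hoxd4: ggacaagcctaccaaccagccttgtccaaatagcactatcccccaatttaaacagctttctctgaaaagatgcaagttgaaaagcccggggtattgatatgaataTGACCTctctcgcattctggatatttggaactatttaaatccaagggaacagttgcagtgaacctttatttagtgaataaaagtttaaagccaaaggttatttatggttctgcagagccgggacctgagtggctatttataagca
The Hoxa5 window held 28 CG dinucleotides and none of the 3 motifs. The Hoxb8 window held 1 TGATNNAT match, and the Hoxd4 window 1 AGGTCA match on the reverse strand. The table had 24 windows for 22 of the 39 Hox genes. TGATNNAT was in 16.7% of these 24 windows and in 7.68% of all 32851 windows, AGGTCA in 25.0% and 14%, and TGACAG in 8.33% and 15.9%. The median number of CG dinucleotides per window was 12.5 in Hox genes against 6 in all windows. It was 12 for the 11 windows of Hox genes with enough counts to be tested and 13 for the 11 windows of Hox genes at 0 in every library. These matches describe the letters in the windows and are not measured sites.

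Which Hox genes were read in these brains depended on the paralogue number. Of the 23 members numbered 1 to 8, 21 had a count in at least 1 library, and of the 16 numbered 9 to 13, 3 had one. Those 3 took 36 of the 9849 Hox counts over all libraries. In all, 20 members passed the filter on low counts and were tested, among them Hoxa2, Hoxa3, Hoxa4, Hoxa5, Hoxa7, Hoxb2 to Hoxb8, Hoxc4, Hoxc5, Hoxc6, Hoxd1, Hoxd3, Hoxd4 and Hoxd8. Of the 19 that did not pass, 15 were at 0 in every library, including Hoxb1, Hoxc8 and all members of paralogue groups 10, 11 and 12. A count of 0 over the 20 libraries allows up to 3 counts, or 0.00554 CPM (counts scaled to library size), and covers counting error only. The other 4 were Hoxa6 (31 counts in 11 libraries, up to 1.57 TPM), Hoxb9 (9 counts in 2 libraries), Hoxb13 (1 count) and Hoxd13 (26 counts in 7 libraries).

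Levels are given as deposited TPM, which are scaled to transcript length and library size and can be compared between genes. Mean TPM over the 20 libraries was highest for Hoxb5, at 4.91 ± 5.77 (SD, n = 20), followed by Hoxa5 at 3.32 ± 3.93. Next came Hoxb6 at 1.83 ± 2.72, Hoxc4 at 1.76 ± 1.47 and Hoxa4 at 1.75 ± 1.34, whose means lay within a fraction of their SDs of each other. Paralogue group 5 had the highest mean summed level, 8.93 TPM, ahead of 4.78 TPM for group 4, 2.93 for group 3 and 2.05 for group 2. On the caudal side, groups 6, 7 and 8 had mean sums of 2.49, 0.844 and 1.84 TPM, so group 8 exceeded group 7, and group 9 had 0.0145 TPM. These means weigh the libraries with much Hox RNA most. Counted by library, group 5 was the highest in 15 of 20, the exceptions being Wild type replicates 2 and 3, J1 lf/lf replicates 2 and 3 and J27a replicate 3. With each library weighted equally, Hoxb made up 47.2% ± 8.09 (SD, n = 20) of the summed Hox TPM, Hoxa 29.1% ± 5.8, Hoxc 12.1% ± 3.01 and Hoxd 11.5% ± 8.55. Hoxb was the highest cluster in 18 of 20 libraries. Hoxa exceeded it in J27b replicate 2, and Hoxd in Wild type replicate 2, where Hoxd took 43.4%.

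Other tested members had lower means. In Hoxb they were Hoxb8 at 1.69 TPM, Hoxb3 at 1.38, Hoxb2 at 1.30, Hoxb4 at 0.794 and Hoxb7 at 0.706. In Hoxa they were Hoxa2 at 0.751 TPM, Hoxa3 at 0.629 and Hoxa7 at 0.138. Hoxc5 and Hoxc6 had mean levels of 0.696 and 0.326 TPM. In Hoxd, Hoxd3 led at 0.921 TPM, ahead of Hoxd4 at 0.477, Hoxd1 at 0.424 and Hoxd8 at 0.154. Hoxa2, which reaches further forward in the embryonic hindbrain than any other Hox gene, was read in every library. By the annotation, exons of 10 of the 20 tested members overlap another member on the same strand (Hoxd3 with Hoxd4, Hoxc5 with Hoxc10) or another gene on the opposite strand, such as Hoxb5os over Hoxb5 and Hoxb3os over Hoxb2 and Hoxb3. The split between members that overlap on the same strand is uncertain. Hoxb5os and Hoxb3os have no row of their own in the deposited gene table. The labels do not say whether counting used the strand, so reads from such opposite-strand genes may have been counted for the Hox genes.

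**Figure D1:**
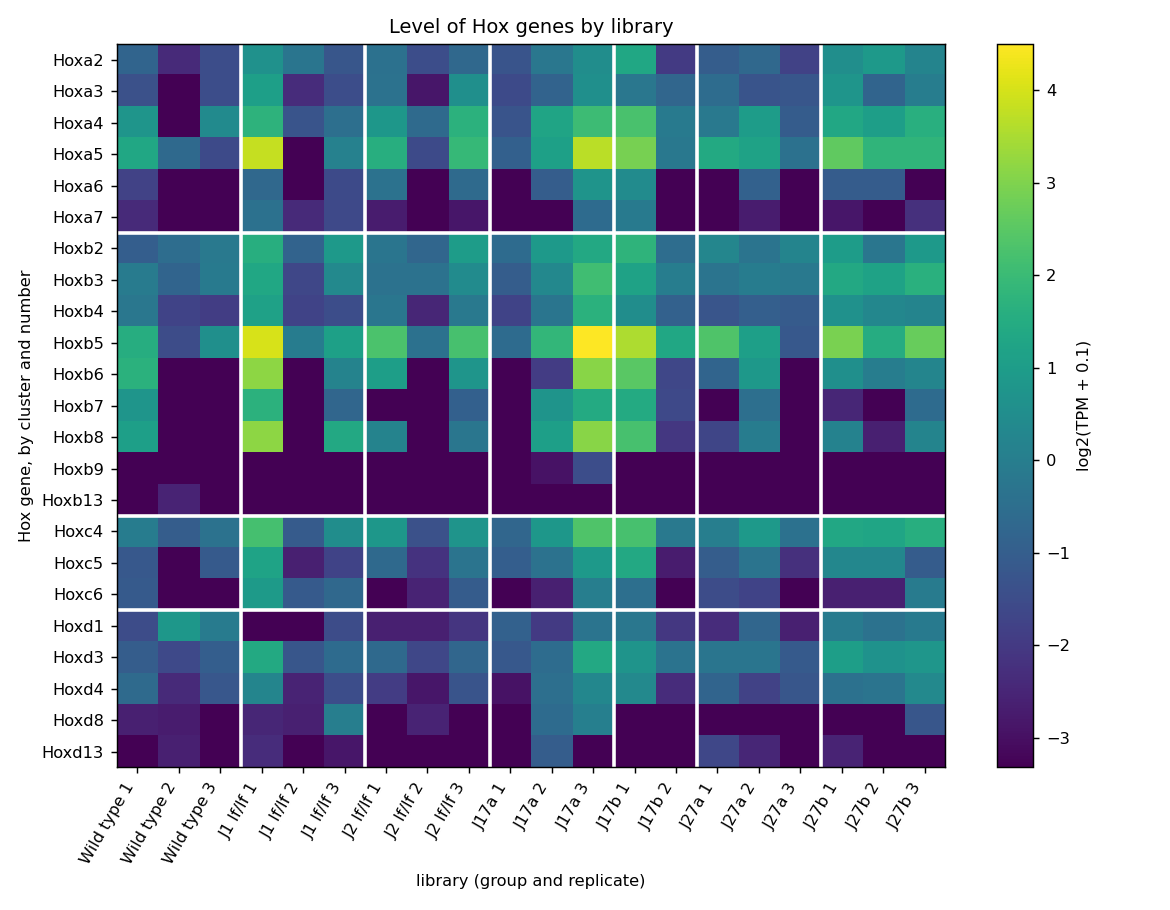
Level of 23 of the 24 Hox genes with a count in at least 1 library (1 is not drawn), as log2(TPM + 0.1), with genes in rows by cluster and libraries in columns by group; white lines separate clusters and groups. Whole columns are bright or dark together: J1 lf/lf replicate 1, J17a replicate 3 and J17b replicate 1 are bright from Hoxa2 to Hoxc6, and the members numbered 9 and above are dark in nearly every library.

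The level of Hox transcripts differed up to 18.2-fold between libraries of the same genotype, while the group means ran from 10.81 ± 7.73 TPM (SD, n = 3) in Wild type to 38.21 ± 43.7 TPM (SD, n = 3) in J17a. The summed TPM of all 39 members was 19.53, 4.79 and 8.1 in the Wild type libraries, and 78.85, 4.34 and 16.27 in J1 lf/lf. It was 19.66, 4.26 and 24.43 in J2 lf/lf, 4.89, 22.09 and 87.66 in J17a, and 60.02 and 8.99 in J17b. J27a gave 15.5, 16.92 and 5.9, and J27b 35.37, 22.33 and 31.38. From lowest to highest library the range was 20.6-fold, nearly all of it present within J1 lf/lf. The 3 highest libraries came from 3 different groups, each of which also held a library of 8.99 TPM or less. Only in J27b did the replicates stay close, with a 1.58-fold range, against 2.87-fold in J27a and 4.08-fold or more in the other 5 groups. In bulk brain RNA, fewer cells of a Hox-expressing type and less Hox RNA per cell cannot be told apart.

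**Figure D2:**
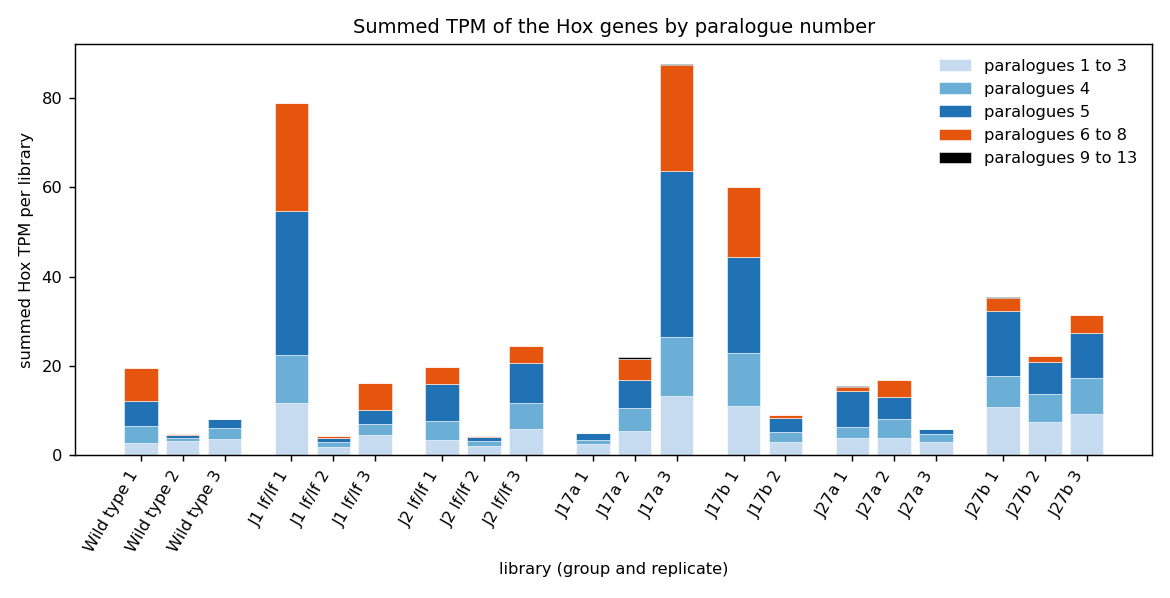
Summed TPM of the 39 Hox genes in each library, stacked by paralogue number. J1 lf/lf replicate 1 (78.85 TPM), J17a replicate 3 (87.66 TPM) and J17b replicate 1 (60.02 TPM) stand above their own replicates, and the 3 J27b bars are of similar height.

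The same libraries led member after member. Hoxb5 was at 2.81, 0.25 and 1.38 TPM in Wild type, 16.10, 0.87 and 2.06 in J1 lf/lf, and 4.76, 0.66 and 4.61 in J2 lf/lf. In J17a its level was 0.57, 3.52 and 22.57 TPM, in J17b 11.60 and 2.45, in J27a 5.03, 2.05 and 0.35, and in J27b 7.49, 2.80 and 6.28. The highest library was thus 90.3-fold above the lowest, and every group overlapped with Wild type. Hoxa5, which patterns the cervical region and its motor neurons, was at 2.45, 0.54 and 0.24 TPM in Wild type, 13.86, 0 and 0.98 in J1 lf/lf, 2.91, 0.24 and 3.70 in J2 lf/lf, and 0.43, 2.06 and 12.76 in J17a. The other lines had 7.39 and 0.78 TPM of it in J17b, 2.60, 2.18 and 0.65 in J27a, and 5.89, 3.41 and 3.38 in J27b. One J1 lf/lf library therefore had the highest Hoxa5 level of all and another had no Hoxa5 count.

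Hoxb6 was absent from more libraries. It was at 3.11, 0 and 0 TPM in Wild type, 8.95, 0 and 1.04 in J1 lf/lf, 1.99, 0 and 1.58 in J2 lf/lf, and 0, 0.16 and 8.50 in J17a. Its levels were 5.56 and 0.22 TPM in J17b, 0.48, 1.69 and 0 in J27a, and 1.39, 0.89 and 1.08 in J27b, the only group of 3 in which each library had a count of it. Hoxc4 was detected in every library: 0.87, 0.39 and 0.68 TPM in Wild type, 4.50, 0.37 and 1.32 in J1 lf/lf, and 1.68, 0.28 and 1.57 in J2 lf/lf. The other groups had 0.50, 1.65 and 5.03 TPM of Hoxc4 in J17a, 4.61 and 0.80 in J17b, 0.92, 1.74 and 0.66 in J27a, and 2.47, 2.34 and 2.90 in J27b. Its 3 J27b libraries lay above every Wild type, J2 lf/lf and J27a library.

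Hoxa4 was at 1.58, 0 and 1.25 TPM in Wild type, 3.21, 0.31 and 0.63 in J1 lf/lf, 1.65, 0.55 and 3.13 in J2 lf/lf, and 0.31, 2.26 and 4.02 in J17a. Its other values were 4.71 and 0.82 TPM in J17b, 0.80, 1.89 and 0.38 in J27a, and 2.49, 1.98 and 2.93 in J27b. Hoxd3, the leading member of its cluster, was at 0.39, 0.23 and 0.41 TPM in Wild type, 2.58, 0.33 and 0.56 in J1 lf/lf, and 0.54, 0.22 and 0.50 in J2 lf/lf. It stood at 0.35, 0.58 and 2.56 TPM in J17a, 1.57 and 0.69 in J17b, 0.72, 0.73 and 0.36 in J27a, and 1.99, 1.48 and 1.62 in J27b. For both genes the J27b libraries were all above the Wild type libraries, and for Hoxd3 all above those of J2 lf/lf and J27a as well.

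Of the 20 tested members, 7 were highest in J1 lf/lf replicate 1, 6 in J17a replicate 3 and 6 in J17b replicate 1. The exception was Hoxd1, highest in Wild type replicate 2 at 1.65 TPM (39 counts), a library with the third lowest summed Hox level. Hoxd1 had no count in J1 lf/lf replicates 1 and 2, although the former had the second highest summed level. The coefficient of variation over the 20 libraries had a median of 98.3% over the tested members (66.8% for Hoxb2 to 195% for Hoxd8), against 34.2% for 4222 other tested genes in the same range of mean TPM. Within groups, edgeR's estimate of the biological coefficient of variation had a median of 0.842 in the tested members and 0.317 in 3738 other genes of similar abundance. It was highest for Hoxb8 (2.11), Hoxb6 (1.98) and Hoxb7 (1.83). The groups are therefore compared against a wide spread.

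The share of caudal transcripts also differed between libraries. Paralogues 6 to 8 made up 38.2%, 1.04% and 0% of the summed Hox TPM in the Wild type libraries, and 30.5%, 11.8% and 36.9% in J1 lf/lf. The shares were 19%, 3.29% and 15.2% in J2 lf/lf, 0%, 21.6% and 27.1% in J17a, and 25.9% and 6.56% in J17b. J27a had 6.07%, 22.9% and 0%, and J27b 8.37%, 6.23% and 12.8%. In 5 libraries these members had at most 3 counts together (Wild type replicates 2 and 3, J2 lf/lf replicate 2, J17a replicate 1 and J27a replicate 3). Those 5 were among the 6 libraries with the lowest summed Hox levels, while paralogues 1 to 4 still had 64 to 118 counts in each of them. The 3 libraries with the most Hox transcripts had caudal shares of 25.9% to 30.5%, and the next 3 libraries, which include J27b replicates 1 and 3, had 8.37% to 15.2%.

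**Figure D3:**
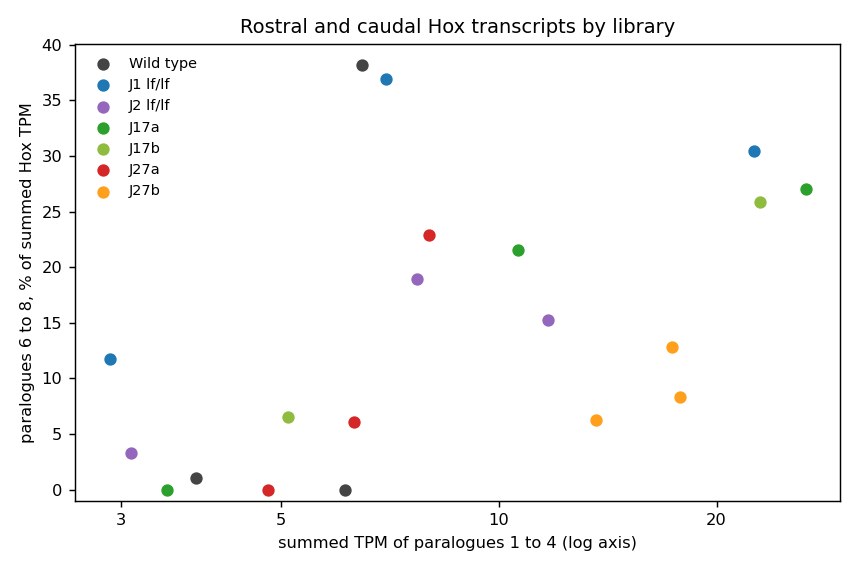
Share of the summed Hox TPM that came from paralogues 6 to 8, against the summed TPM of paralogues 1 to 4 on a log axis, with 1 point per library colored by group. J27b libraries lie at 6.23% to 12.8% although their rostral sums are among the 6 highest, and 2 libraries of Wild type and J1 lf/lf exceed 36% at rostral sums below 7 TPM.

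The design asks whether a missing isoform changes expression in the brain, so each line was compared with Wild type, the 7a line with the 7b line of the same name, and each of these with its lf/lf group. In edgeR's quasi-likelihood test over all genes, 0 of the 20 tested Hox genes passed the adjusted threshold of 0.05 in any of the 12 comparisons. The share of all 16063 genes called was 0.0125% in J1 lf/lf, 0.00623% in J2 lf/lf, 0% in J17a, 0.0249% in J17b, 0% in J27a and 0% in J27b, each against Wild type. It was 0% for J17a against J17b and 0% for J27a against J27b, 0.00623% and 0.0311% for J17a and J17b against J1 lf/lf, and 0.00623% for both J27a and J27b against J2 lf/lf. A test of any difference among the 7 groups called 0.0872% of genes and 0 Hox genes. A test of whether the difference between 7a and 7b lines was the same in the J1 and the J2 lines called 0.00623% of genes and 0 Hox genes. DESeq2's Wald test and limma on log2(TPM + 1) also called 0 Hox genes in each of these. The comparisons with a shared control group use the same control libraries.

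At an unadjusted p under 0.05 in edgeR, 3 Hox genes were reached in J1 lf/lf, 1 in J2 lf/lf, 2 in J17a, 5 in J17b, 1 in J27a and 5 in J27b, each against Wild type. The counts were 2 for J17a against J17b, 3 for J27a against J27b, 1 and 0 for J17a and J17b against J1 lf/lf, and 0 and 4 for J27a and J27b against J2 lf/lf. The test among the 7 groups had 3, and the test of the 7a and 7b difference 2. Of all 16063 tested genes, 810 reached this p in J1 lf/lf, 1276 in J2 lf/lf and 705 in J17a, each against Wild type. Counts of 1 or 2 Hox genes are therefore not read as a result, and the numbers over all genes in the other comparisons are not given here. Fitted differences leaned upward against Wild type. Higher values than in Wild type were fitted for 19 of 20 members in J1 lf/lf (median log2 difference 1.64), 15 in J2 lf/lf (0.50), 19 in J17a (1.70), 17 in J17b (1.68), 13 in J27a (0.27) and 18 in J27b (1.43). The medians of all tested genes in these 6 comparisons lay between -0.00455 and 0.0042. Hoxd8 had no count in J17b and J27a, and with it at its bound of 3 counts, or left out where Wild type was no higher than that, these 2 medians were 1.73 and 0.34. In J1 lf/lf, J17a and J17b a single library each had a high summed Hox level. Without it the summed level was no more than 0.32 above Wild type on the log2 scale. That sum is led by the most abundant members, and how many members leaned upward without that library is not given here.

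The gene with the smallest p differed between comparisons. It was Hoxd1 in J1 lf/lf against Wild type, where Wild type had 0.25, 1.65 and 0.86 TPM and J1 lf/lf had 0, 0 and 0.25 TPM (log2 difference -3.42, SE 1.03, edgeR adjusted p = 0.704). Hoxd1 was also the leading gene in J2 lf/lf (log2 difference -3.30, edgeR adjusted p = 0.590) and J27a (-2.03, edgeR adjusted p = 0.959) against Wild type. Hoxd1 is a paralogue group 1 gene, and it ran opposite to the other members in J1 lf/lf. In J17a against Wild type it was Hoxd3 (1.79, edgeR adjusted p = 0.994), whose difference was 0.47 without J17a replicate 3, and in J17b against Wild type Hoxa2 (2.27, edgeR adjusted p = 0.722). Hoxd1 led in J17a (2.33, edgeR adjusted p = 0.740) and J17b (2.43, edgeR adjusted p = 1) against J1 lf/lf, in J27a (1.27, edgeR adjusted p = 0.923) and J27b (3.08, edgeR adjusted p = 0.766) against J2 lf/lf, and in the test among 7 groups (edgeR adjusted p = 0.493). For the 7a and 7b difference it was Hoxd8 (edgeR adjusted p = 0.641), which had no count in J17b and J27a.

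J27b was the group in which many rostral members were above Wild type in every library. In J27b against Wild type, 10 of 20 tested members had all 3 J27b libraries above all 3 Wild type libraries, beside 6.01% of all tested genes, and 0 had the reverse. They were Hoxa2, Hoxa3, Hoxa4, Hoxa5, Hoxb3, Hoxb4, Hoxc4, Hoxc5, Hoxd3 and Hoxd4, all of paralogue groups 2 to 5. Other rostral members, such as Hoxb2, Hoxb5 and Hoxd1, overlapped with Wild type. Against J27a, 9 members were lower in all J27a than in all J27b libraries (Hoxa2, Hoxa4, Hoxa5, Hoxb3, Hoxb4, Hoxc4, Hoxd1, Hoxd3 and Hoxd4), beside 8.82% of genes. Against J2 lf/lf, 7 members were higher in all J27b libraries (Hoxa2, Hoxb3, Hoxb4, Hoxc4, Hoxd1, Hoxd3 and Hoxd4), beside 8.39%. In the other 9 comparisons together, 7 of 180 gene and comparison pairs did not overlap, beside 12.9% of such pairs over all genes. The 3 comparisons share the J27b libraries, and the members share the same tissue pieces, so these counts are not independent of each other.

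Hoxb3 shows this group in its values. Hoxb3 was at 0.85, 0.48 and 0.83 TPM in Wild type, 0.67, 0.67 and 1.27 in J2 lf/lf, 0.71, 0.88 and 0.80 in J27a, and 2.56, 2.19 and 3.06 in J27b. J27b was higher than Wild type by 1.89 (SE 0.72) on the log2 scale, and J27a lower than J27b by a log2 difference of -1.73 (SE 0.72), with edgeR adjusted p = 0.713 and 0.822. Fitted with only the 6 libraries of J27a and J27b, which leaves out the wide spread of J1 lf/lf, J17a and J17b, the same log2 difference of -1.73 had an SE of 0.26 and an edgeR adjusted p = 0.005549. In the same kind of fit of J27b against J2 lf/lf, Hoxb3 (1.54, SE 0.29, edgeR adjusted p = 0.01608) and Hoxd3 (1.98, SE 0.38, edgeR adjusted p = 0.02011) were called. These fits called 131 and 83 genes in all, and 0 Hox genes in the other comparisons. Against Wild type, Hoxd3 had the smallest p of the members in J27b (2.36, SE 0.73, edgeR adjusted p = 0.703), followed by Hoxa2 (2.37, SE 0.78, edgeR adjusted p = 0.703). With a term for title numbers above 10, which holds all J27b and no Wild type libraries and is set by the J17a libraries alone, the Hoxd3 difference was 0.21. All J27a libraries are also above 10, and the term left the difference between J27a and J27b as it was (Hoxa2, -1.90).

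The tested caudal members, of paralogues 6 to 8, were Hoxa7, Hoxb6, Hoxb7, Hoxb8, Hoxc6 and Hoxd8. Of them, 0 were higher in every J27b library than in every library of Wild type, J2 lf/lf or J27a. The shares of all tested genes were 6.01%, 8.39% and 8.82%, so a count of 0 among so few members is not read as a result. Hoxb8 was at 2.04, 0 and 0 TPM in Wild type and at 1.01, 0.06 and 1.06 in J27b, a log2 difference of 0.04 (SE 2.00). Hoxb6 had a log2 difference of 0.11 (SE 1.96) and Hoxb7 of -1.38 (SE 1.91). With such errors neither a rise nor a fall of several-fold can be told from none. Whether the rostral and caudal members differed in their response was not tested.

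**Figure D4:**
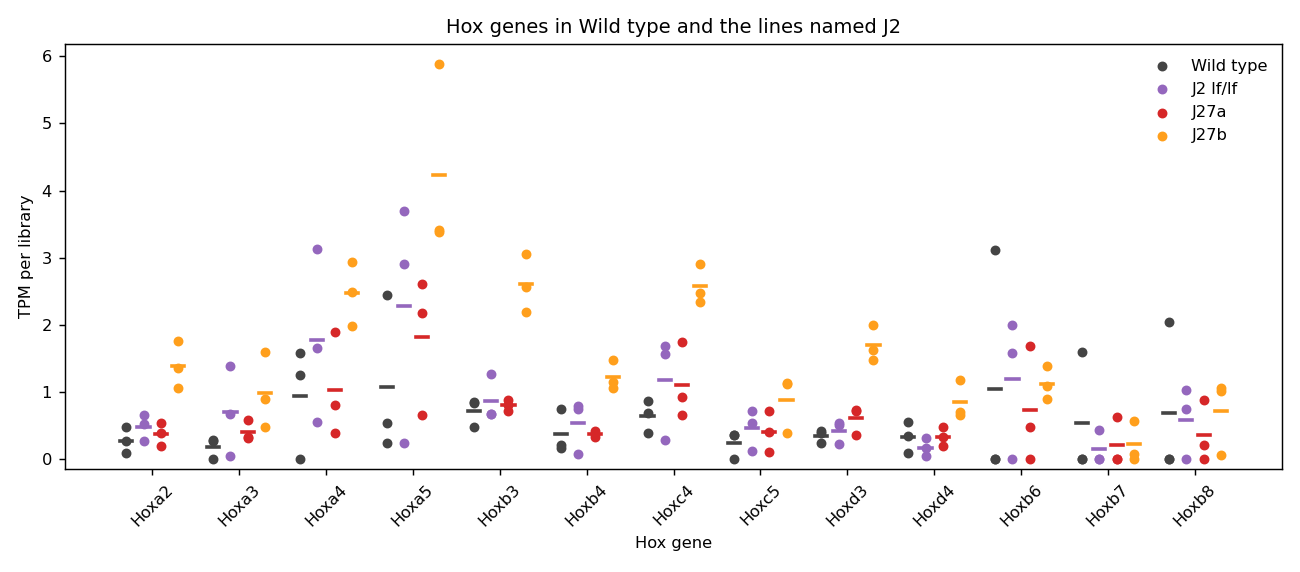
TPM per library of 13 Hox genes in Wild type, J2 lf/lf, J27a and J27b, with 1 point per library and a bar at the group mean. For Hoxa2, Hoxb3, Hoxb4, Hoxc4, Hoxd3 and Hoxd4 the 3 J27b points lie above every point of the other 3 groups, whereas for Hoxb6, Hoxb7 and Hoxb8 the groups overlap.

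Marker lists of other cells and regions also set the J27b libraries apart in part. The list of glycinergic transmission genes of hindbrain and spinal cord (Slc6a5, Glra1 and Glra3, 3 of 3 read in the data) summed to 44.79 to 74.22 TPM in J27b, 23.57 to 51.43 in Wild type, 36.12 to 39.88 in J2 lf/lf and 37.27 to 43.56 in J27a. The 8 cerebellar markers summed to 712.3 to 835.0 TPM in J27b, 1014 to 1320 in Wild type, 733.9 to 1141 in J2 lf/lf and 814.1 to 1576 in J27a. The 6 transcription factors of hindbrain neurons summed to 7.16 to 9.50 TPM in J27b, inside the Wild type range of 5.08 to 11.21. The 6 myelin genes summed to 6875 to 7244 TPM in J27b, above all Wild type (5547 to 6859) and all J27a libraries (5351 to 6681), though not those of J2 lf/lf (7154 to 7714). In edgeR, 3 of these 6 had an unadjusted p under 0.05 in J27b against Wild type and 4 in J27a against J27b, and 0 passed the adjusted threshold in either. The 7 choroid plexus genes summed to 1051 to 3363 TPM in J27b, 752.6 to 2260 in Wild type, 1393 to 4298 in J2 lf/lf and 957.9 to 1082 in J27a. The 6 pituitary genes summed to 4.87 to 8.52 TPM in J27b and to 8.46 to 7439 in Wild type. No gene of these 6 lists was at 0 in every library. Their part in the Hox levels was not tested.

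Over the 20 libraries, Hox levels went with those of Slc6a5, which encodes the glycine transporter of brainstem and spinal cord neurons. On the log2 CPM scale, Pearson's r with Slc6a5 was positive for 20 of 20 tested members, with a median of 0.69, while the median of the 16062 other tested genes was -0.00317. An r of at least 0.5, a limit chosen after the values were seen, was reached by 17 of 20 members and by 1.93% of all genes. With p-values adjusted over all 16062 genes, 0 members passed by Pearson's r, beside 0% of genes, and 0 by Spearman's rho, beside 0.0934% of genes. The number of permutations limits the former: at least 4 genes at the smallest p they can give are needed for any to pass, and 2 genes were there. In permutation tests without adjustment, 17 members had a p under 0.05 by Pearson's r. The share of all genes at that p is not given here, so this count is not read as a result. The closest relation was that of Hoxd3, with r = 0.858 (permutation p = 1e-05, the smallest that 100000 permutations can give, and 0.0803 adjusted over all genes). Its Spearman rho was 0.719 (permutation p = 0.00063, and 0.0761 adjusted over all genes).

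The relation was also computed with libraries left out and within groups. Without the 2 libraries farthest from the median of Slc6a5 (J1 lf/lf replicate 1 and J27b replicate 1), 20 of 20 values of r stayed positive, with a median of 0.655, and Hoxd3 had r = 0.799. J17a replicate 3 and J17b replicate 1, with summed Hox levels of 87.66 and 60.02 TPM, stayed in. The relation without all of the libraries with the most Hox transcripts was not tested. On deviations from the group means the median was 0.694, and Hoxd3 had r = 0.842 (exact permutation p = 0.000664 over 93312 arrangements within groups). Among the 10 libraries with title numbers up to 10 the median r was 0.636, and among the 10 with higher numbers it was 0.714. Hoxc4 (r = 0.781), Hoxb5 (0.763), Hoxb2 (0.757) and Hoxb3 (0.753) were next to Hoxd3, and Hoxb8, a caudal member, had r = 0.642. Members below 0.5 included Hoxd8 (0.29) and Hoxd1 (0.0321). The members share libraries, so the 20 values are not independent.

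**Figure D5:**
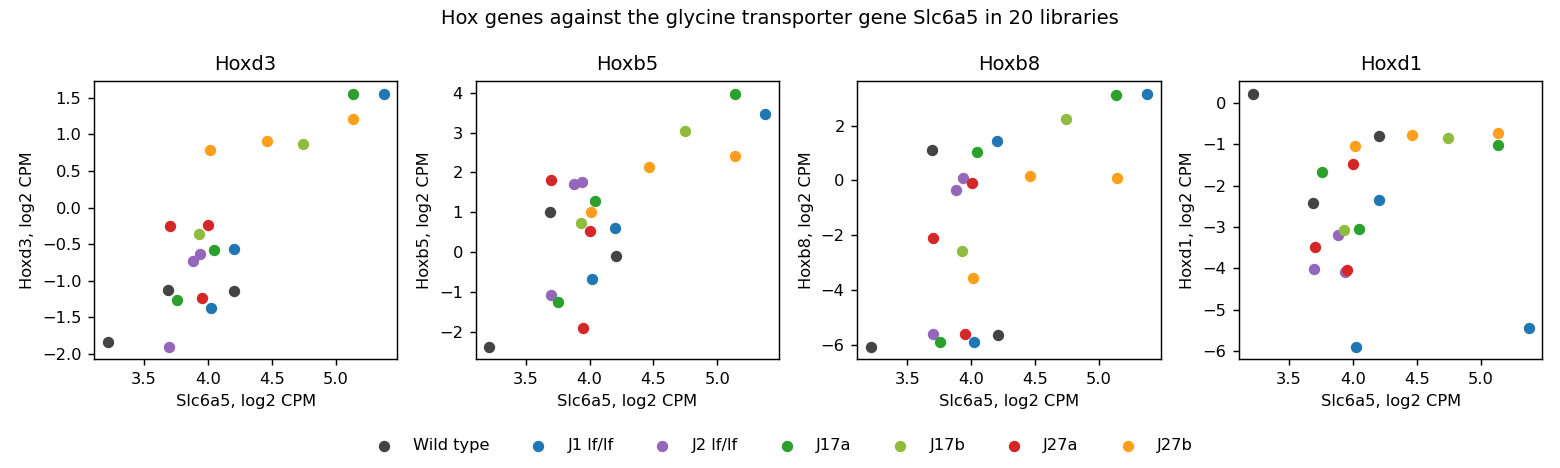
Level of Hoxd3, Hoxb5, Hoxb8 and Hoxd1 against that of Slc6a5, both as log2 CPM, in 20 libraries colored by group. Hoxd3 (r = 0.858) and Hoxb5 (r = 0.763) are higher where Slc6a5 is higher, Hoxb8 (r = 0.642) has a floor of libraries at 0 counts, and Hoxd1 (r = 0.0321) shows no trend.

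Other regional genes, chosen after the values were seen, gave different medians. Glra1, which encodes a glycine receptor subunit, was like Slc6a5: the median r with the Hox genes was 0.667, and 17 of 20 reached 0.5, beside 2.4% of all genes. For Tph2 of serotonin neurons the median was 0.152, for Gabra6 of cerebellar granule cells -0.249 and for Ttr of the choroid plexus 0.138. For these 3, 0 members reached an r of 0.5, beside 2.7%, 6.21% and 1.98% of genes. Mog, a myelin gene, had a median r of 0.507 with 11 members at 0.5 or above, beside 3.72% of genes. The pituitary hormone gene Gh ran the other way, with a median of -0.559 and 12 members at -0.5 or below, beside 0.791% of genes. Pituitary markers summed to 4.53 to 16.42 TPM in the 3 libraries with the most Hox transcripts, and to 7439 and 11490 TPM in Wild type replicate 2 and J1 lf/lf replicate 3, where the Hox sums were 4.79 and 16.27 TPM.

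The summed levels of genes that act with or on the Hox genes varied far less between libraries than the Hox sum. Abundant genes lead these sums, and single members could vary more, such as Pbx4 from 2.19 to 5.82 TPM. The 9 TALE cofactors (4 Pbx, 3 Meis and 2 Pknox genes), which bind DNA together with Hox proteins, summed to 259.5 to 313.8 TPM, a 1.21-fold range. The 14 Polycomb genes, whose complexes keep Hox genes silent, had a 1.13-fold range (377.8 to 427.7 TPM), and the 8 genes of the opposing MLL and demethylase complexes a 1.14-fold range (203.8 to 233.1 TPM). The 3 J27b libraries had the lowest Polycomb sums of the 20, at 377.8, 379.0 and 378.1 TPM, against 401.7 to 406.4 in Wild type. In the 3 libraries with the most Hox transcripts the sums were higher. They were 388.0 TPM in J17a replicate 3, 400.6 in J1 lf/lf replicate 1 and 394.2 in J17b replicate 1. A relation between Polycomb and Hox levels was not tested. Of the 14 Polycomb genes, 10 were fitted lower in J27b than in Wild type, with a median log2 difference of -0.067. In edgeR, 0 of the 9, 0 of the 14 and 0 of the 8 passed the adjusted threshold in any of the 12 comparisons. In J27b against Wild type the smallest p-values of these lists were those of Pbx2, Ezh1 and Kdm6a (edgeR adjusted p = 0.804, 0.703 and 0.717).

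Of the 13 genes of the retinoic acid pathway and early regulators of Hox genes, 9 were tested and 0 were called in the 12 comparisons. Gbx2, a homeobox gene of the anterior hindbrain boundary and of thalamus, was the 1 gene of these lists called in the test among 7 groups (edgeR adjusted p = 0.03555). Gbx2 was at 9.87, 11 and 11.18 TPM in J27b, against 5.89, 3.69 and 4.89 in Wild type, 3.38, 9.44 and 4.75 in J2 lf/lf and 2.60, 3.63 and 2.54 in J27a. Its J27b libraries were the 3 highest of the 20. Among the cell type markers, Doc2g and Tbx21 of the olfactory bulb were called in the same test (edgeR adjusted p = 0.02626 and 0.04162). The caudal inducers Cdx2 and Cdx4 were at 0 in every library, as were 7 of the 9 other transcripts listed inside or at the edge of the clusters, among them Hotair and Hottip. The homeobox genes Evx1 and Evx2, at the ends of the Hoxa and Hoxd clusters, were tested, with mean levels of 0.447 and 0.406 TPM. Genes that flank the clusters, 8 in number, summed to 253.4 to 326.6 TPM, a 1.29-fold range against the 20.6-fold range of the Hox genes between them. Abundant genes lead this sum, such as Hibadh (mean 88.6 TPM), Mtx2 (66.76) and Calcoco1 (58.7). Flanking genes at levels like those of Hox genes varied more: Ttll6 ran from 0.05 to 0.88 TPM and Skap1 from 0.66 to 2.38 TPM.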

How the data were processed

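Poly(A)-enriched libraries were sequenced in pairs of 150 bp reads, per the labels' protocols. The authors deposited a table of estimated counts and one of TPM values, for which the submitters' processing notes name cutadapt, RSEM and mm10. Their versions, gene models and strand setting are not given here. RSEM shares ambiguous reads, so 4.11% of the deposited estimated counts were not whole. They were rounded here.

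The members, gene lists, limits and comparisons were chosen with earlier results of these data known. edgeR 4.0.16 (R 4.3.3) was run on all 20 libraries with TMM factors (0.975 to 1.03), a filterByExpr low-count filter (16063 genes kept) and a robust quasi-likelihood fit of group means (biological coefficient of variation 0.12). P-values were adjusted by Benjamini-Hochberg over all tested genes at 0.05, two-sided. The test was checked on simulated counts, with changes placed only in genes more abundant than most Hox members. That check does not show which changes could be found among the Hox genes. Correlations used log2 CPM computed from the counts with 0.5 added, and 100000 permutations. Their adjustment over the Hox genes alone was replaced in the text by one over all genes. DESeq2 1.42.0 and limma 3.58.1 were alternatives. Library totals, 21395041 to 33828755, put 3 counts at 0.0887 to 0.14 CPM per library, for counting error only.

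Named were the tested Hox genes, others with counts in at least 10 libraries, the smallest p per comparison, and each library's value for the 5 highest by mean TPM plus the highest of each further cluster. Other names (Hoxb3, Hoxb8, Hoxd13, Gbx2 and the like) were added after their values were seen. Replicates differed by more than counting noise in each group. Some results are not reported here.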

Additional observations from a re-analysis of the deposited data

How the results depend on the processing

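The absence of Hox calls held in 402 of 404 pairs of a comparison and an alternative setting. Most settings were 1 refit that gave all comparisons, so these pairs are not independent checks. The settings include other size factors, no filter on low counts, DESeq2, limma, a term for title numbers up to 10 and each library left out. The exceptions used only the groups compared: 1 Hox gene was called for J27a against J27b and 2 for J27b against J2 lf/lf. The titles share replicate numbers between groups, but libraries of the same number in different groups did not deviate together (median r -0.0181 over 57 pairs), and 5 of 20 libraries correlated best with their own number. With a replicate block, 0 Hox genes were called in each comparison. The log2 difference of the Hox gene with the smallest p of each comparison was refitted under 374 alternatives, and 372 kept its direction without passing the threshold. Hoxb3 and Hoxd3, which were called with only the groups compared, were not among these in those comparisons. Hoxa2 in J17b against Wild type ranged from -0.85 (without J17b replicate 1) to 3.17, and Hoxd1 in J27a against J2 lf/lf from -0.072 (without J27a replicate 2) to 1.80. With the term for title numbers, which the J17a libraries alone set, Hoxd3 against Wild type was 0.076 in place of 1.79 in J17a and 0.21 in place of 2.36 in J27b, and Hoxa2 in J17b was 0.55 in place of 2.27. J17a replicate 3 left out gave 0.47 for Hoxd3 in J17a.

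Differences in mean summed Hox TPM from Wild type, as log2 ratios, rested on single libraries in 3 lines. Leaving out each library in turn gave -0.069 to 2.36 for J1 lf/lf (1.62 with all), 0.32 to 2.57 for J17a (1.82) and -0.27 to 2.47 for J17b (1.68). The lowest values came without J1 lf/lf replicate 1, J17a replicate 3 and J17b replicate 1. For J27b the range was 1.10 to 2.20 (1.46). Positive correlations with Slc6a5 counted among the Hox genes alone numbered 16 to 17 with each library left out. They numbered 0 when adjusted over all genes, which compares each p with many more tests. Genes chosen after seeing the data were also put in place of Slc6a5, with adjustment over the Hox genes alone. Positive correlations then numbered 17 with Glra1, 12 with Mog and 0 with Tph2, Gabra6, Ttr or Gh. The last of these had negative relations, and the cause was not tested. Numbers adjusted over all genes are not given for them, so these counts are not read as a result. Members with few counts, such as Hoxa7, Hoxd8 and Hoxa6, are limited by depth.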

Other observations

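Pax8, a transcription factor gene of hindbrain and spinal cord neurons that was looked at after the values were seen, was highest in the 2 libraries with the most Hox transcripts. It was at 2.28 TPM in J17a replicate 3 and 1.74 TPM in J1 lf/lf replicate 1. In J17b replicate 1, next in summed Hox level, it was at 0.83 TPM, close to the 0.81 TPM of Wild type replicate 3, where the Hox sum was 8.1 TPM. J27b had 1.27, 0.63 and 1.34 TPM of Pax8, and Wild type 0.48, 0.17 and 0.81 TPM. Evx1, beside the Hoxa cluster, was at 0.58, 0.51 and 0.79 TPM in J1 lf/lf and at 0.18, 0.18 and 0.79 TPM in J17a, where replicate 3 had the highest Hox sum of the 20 libraries.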
